A study of Mus musculus with 6 samples.

Results

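The genes described here belong to the Notch pathway of mouse beige adipocytes: the receptors Notch1 to Notch4, the ligand Jag1, the DNA-binding factor Rbpj, and the repressors Hes1, Hes6, Hey1 and Heyl. They were chosen by gene name from a table of 13962 genes, and where a name occurred more than once the row with the most counts was taken. Rows for 9 of the 10 genes were used, and Heyl was not analysed here. Poly(A) RNA was sequenced from beige adipocytes that had been differentiated in culture from preadipocytes of the inguinal white fat of C57BL/6 mice. The preadipocytes had been immortalized by the Large T antigen. All cells carried the genotype TLE3F/F CreERT2, that is, floxed Tle3 alleles and a Cre recombinase that tamoxifen activates. The group labelled knockout (n = 3 libraries) received 500 nM 4-hydroxytamoxifen for 24 hours on day 4 of differentiation, and the control group (n = 3 libraries) an equal volume of ethanol. The medium of both groups held 20 nM insulin, 1 nM T3 (a thyroid hormone) and 1 uM rosiglitazone, with isobutylmethylxanthine, dexamethasone and indomethacin added for the first 2 days, and harvest was on day 10. No sample here is of Cre-free cells given tamoxifen, so the compound, Cre activity and the deletion cannot be told apart. Nothing in the labels says that replicates were separate cultures, so the spread that p-values are based on could be technical.

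Total counts ran from 14606228 to 19294632 per library. Tle3, the targeted gene, had 286.9, 288.9 and 294.2 CPM (counts scaled to the size of the library) in libraries labelled knockout 1 to 3, against 151.4, 151.3 and 152.1 CPM in controls 1 to 3. It was higher, not lower, in every library labelled knockout. Since counts cover the whole gene, undeleted exons included, they cannot check the labels, and every direction here rests on the labels. The adipocyte identity of the cells was visible in both groups: all 7 adipocyte markers looked for had rows, and their summed level was 7109 to 8742 CPM in the libraries labelled knockout and 5629 to 7157 CPM in controls. Fabp4 supplied most of these sums, with means of 5387 CPM in the libraries labelled knockout and 4514 CPM in controls. All 7 had a positive log2 fold change, from 0.15 to 1.04. Of them 3 rose (edgeR), beside 6.91% of all tested genes, and DESeq2 called 4. At an unadjusted edgeR p under 0.05, 6 of the 7 were higher. The 3 were Lipe, Cidea and Ucp1, which were named after their values were seen. The part of adipocyte content in the results that follow was not tested. The 4 endothelial and 4 macrophage markers with rows were near 0, with sums of at most 4.30 and 8.16 CPM in the libraries labelled knockout and at most 3.83 and 7.40 CPM in controls. Of them, edgeR, DESeq2 and limma-voom called 0 of the 2 and 0 of the 4 tested, and 1 of each list was higher at an unadjusted p under 0.05.

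Notch receptors are cut after a ligand on a neighbouring cell binds them, and the released intracellular part joins RBPJ on DNA. RBPJ otherwise recruits corepressors, and with Notch and Mastermind coactivators it turns on target genes, of which the HES and HEY families of basic helix-loop-helix repressors are the best known. HES proteins repress transcription by recruiting Groucho/TLE co-repressors, the family of TLE3, through a short motif at their C-terminal end. In mouse fat, Notch signalling is known for restraining the beige programme of adipocytes and for modulating the differentiation of preadipocytes.

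Of these genes, the receptor gene Notch3 was higher in the libraries labelled knockout, and no other member passed the threshold (edgeR adjusted p under 0.05 over all tested genes). Notch2, the most abundant receptor transcript, and Rbpj were lower in every library labelled knockout than in any control, without passing it. The ligand gene Jag1, the target gene Hes1 and its relative Hes6 overlapped between the groups. Of the 8 members tested, 1 rose, beside 6.91% of all 13192 tested genes that rose; 0 fell by edgeR, beside 5.44% of all tested genes, 0 by DESeq2 and 0 by limma-voom, and 2 were lower at an unadjusted p under 0.05. With the 1 that was higher, 3 of 8 reached that unadjusted level, beside 27.9% of all tested genes. The share of members changed, 12.5%, was close to the 12.3% of all tested genes. The CPM of the groups did not overlap for 3 of the 8 (37.5%), beside 31.8% of all tested genes. The median log2 fold change of the 8 was 0.03, and that of all tested genes −0.0025. Because fewer cells of a type and less RNA per cell look alike in such libraries, a lower level can stand for either.

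**Figure D1:**
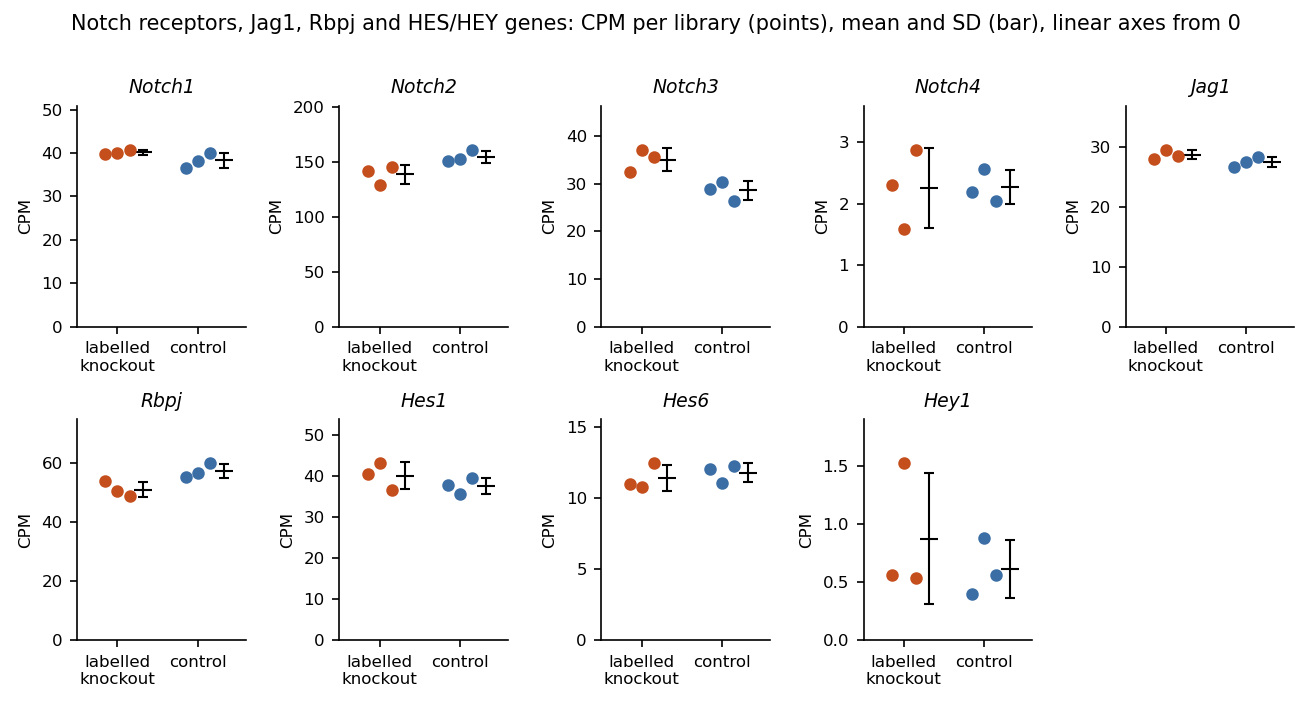
CPM on TMM-scaled library sizes (y axes, linear, each from 0) of the 9 members with a row, for the 3 libraries labelled knockout (orange, left) and the 3 controls (blue, right); points are libraries in replicate order 1 to 3, and bars give mean and SD. Notch3 lies above and Notch2 and Rbpj lie below all controls in the libraries labelled knockout, while the other members overlap.

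NOTCH3, a receptor best known from pericytes and vascular smooth muscle cells, was the one member whose transcript rose. Notch3 (ENSMUSG00000038146) had 32.5, 37.1 and 35.6 CPM in libraries labelled knockout 1 to 3, against 29.0, 30.5 and 26.3 CPM in controls 1 to 3. The lowest library labelled knockout, number 1, was above the highest control, number 2. The means were 35.1 ± 2.36 CPM in the libraries labelled knockout and 28.6 ± 2.09 CPM in controls (SD, n = 3 each), a 1.23-fold difference (95% interval 1.10 to 1.37). The log2 fold change was 0.30 (SE 0.073, edgeR adjusted p 0.0234). It was also called by DESeq2 and limma-voom, but not without labelled knockout 2 (log2 0.25, adjusted p 0.0881), labelled knockout 3 (0.29, 0.0964), control 1 (0.31, 0.0618) or control 3 (0.24, 0.0665). In the GENCODE M21 annotation the antisense gene Gm17276 overlaps Notch3, and since the strand setting of the counting is not given in the sources used here, reads of these genes cannot be told apart.

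Among markers of the cells in which Notch3 is best known, 7 of 8 mural (pericyte and smooth muscle) genes had rows, and Kcnj8 was not analysed here. Their summed level was 2301 to 2355 CPM in the libraries labelled knockout and 2175 to 2513 CPM in controls, so the ranges overlapped. Acta2, Pdgfrb and Tagln supplied most of it, with means in controls of 1301, 560 and 496 CPM. The means of Rgs5, Myh11 and Cspg4 were 1.38, 7.24 and 6.12 CPM in the libraries labelled knockout, against 1.55, 6.59 and 4.12 CPM in controls. The sum therefore says little about these low genes. Of the 7, 2 rose (edgeR), beside 6.91% of all tested genes, and DESeq2 called 1. The 2 were Cspg4, a pericyte proteoglycan gene, and Des, the gene of the filament protein desmin, names picked after their values were seen. The other 5 were not called. Of the 7 log2 fold changes, 3 were positive and 4 negative. The negative ones were those of Rgs5 (−0.15), Pdgfrb (−0.10), Tagln (−0.06) and Acta2 (−0.0091). The part of such cells in the Notch3 difference was not tested.

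NOTCH2, the receptor with the highest level per length, was lower in each library labelled knockout but was not called. Notch2 (ENSMUSG00000027878) stood at 141.2, 128.7 and 145.0 CPM in libraries labelled knockout 1 to 3, against 150.3, 152.6 and 160.7 CPM in controls 1 to 3. Every library labelled knockout was below every control, and labelled knockout 2, the lowest of all, was also the highest for Notch3. The log2 fold change was −0.16 (SE 0.052, 95% interval −0.27 to −0.05), and its edgeR adjusted p of 0.0664 missed the threshold. Permuting the library labels exactly (two-sided) gave p = 0.1 for the CPM of Notch2, as for those of Notch3 and Rbpj, and no smaller p is possible with 3 libraries a group.

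Notch1 and Notch4 did not separate the groups. Notch1, the receptor of most studies on the pathway, had 39.7, 40.0 and 40.7 CPM in the libraries labelled knockout and 36.5, 38.2 and 40.1 CPM in controls. Its highest control lay inside the range of the libraries labelled knockout, and the 95% interval of its fold change ran from 0.965 to 1.14 (edgeR adjusted p 0.461). Notch4, a receptor best known from endothelium, rested on 37, 23 and 43 counts in the libraries labelled knockout and on 39, 38 and 40 counts in controls. At that depth its 95% interval ran from 0.714-fold to 1.42-fold, so a smaller difference was not detectable. The noncoding genes 0610009E02Rik and Gm13568, on the other strand, overlap Notch1 in GENCODE M21, and Gm42820 overlaps Notch2 on the same strand.

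The receptor transcripts were also expressed as shares of their sum, a measure for which this design cannot reach a p under 0.05. Notch2 supplied 65.5%, 62.1% and 64.7% of the summed Notch1 to Notch4 counts in libraries labelled knockout 1 to 3, against 68.9%, 68.2% and 70.1% in controls 1 to 3. Notch3 supplied 15.1%, 17.9% and 15.9% in the libraries labelled knockout, against 13.3%, 13.6% and 11.5% in controls. Notch1 supplied 18.6% ± 0.587 in the libraries labelled knockout and 17.1% ± 0.364 in controls (SD, n = 3 each). For these 3 receptors the groups did not overlap, and each exact two-sided permutation test gave p = 0.1, the floor of this design. The shares add up to a whole, so they are not independent of each other, and they are shares of counts, which longer transcripts raise. The receptors together had 207.3 to 224.2 CPM in the libraries labelled knockout and 218.0 to 229.1 CPM in controls.

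**Figure D2:**
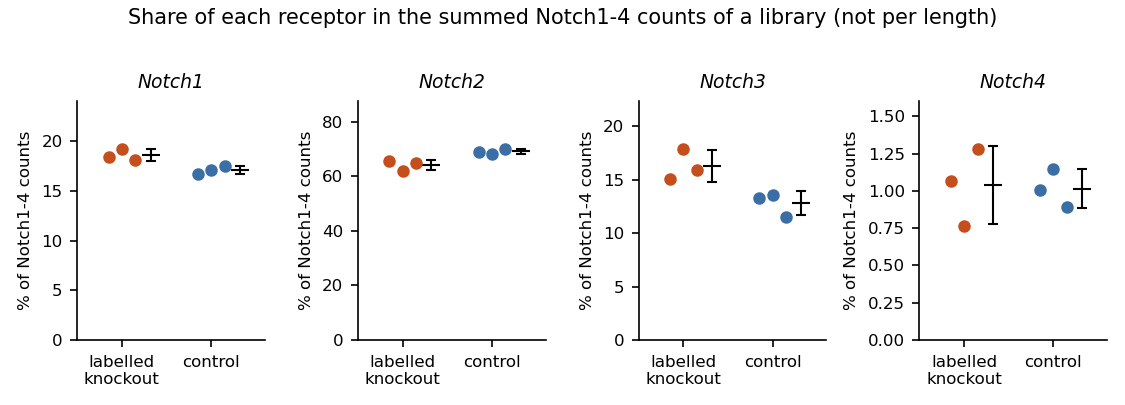
Share of each receptor in the summed Notch1 to Notch4 counts of a library (y axes in percent, from 0), in libraries labelled knockout (orange, left) and controls (blue, right), with mean and SD as bars. Notch2 makes up 62.1% to 65.5% in the libraries labelled knockout and 68.2% to 70.1% in controls, with Notch1 and Notch3 higher in the libraries labelled knockout and Notch4 overlapping.

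Ratios between paralogs, in which library scaling cancels, were set beside each other for 5 pairs. The log2 ratio of Notch3 to Notch2 counts was −1.98 ± 0.168 in the libraries labelled knockout and −2.43 ± 0.152 in controls, a difference of 0.46. For Notch1 to Notch2 it was −1.78 ± 0.084 in the libraries labelled knockout and −2.01 ± 0.0235 in controls, a difference of 0.23 (SD, n = 3 each). In both pairs the groups did not overlap, and the exact two-sided permutation p of 0.1 became 0.25 when adjusted over the 5 pairs. The other 3 pairs, Notch4 to Notch2, Hes1 to Hes6 and Hey1 to Hes1, overlapped (adjusted exact permutation p 0.667 to 0.7).

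The promoter windows of Notch3, the receptor gene that was called, of Notch2, the most abundant receptor transcript, and of Lfng, a modifier of Notch receptors described further on, are shown for the letters that pathway factors bind. The searched letters were TGGGAA, the core bound by RBPJ, CACNAG, the N box, and CACGNG, which covers further sites of HES and HEY repressors; CACGAG fits both of these. Capitals mark every match on either strand. The windows are from RefSeq on GRCm38.p6, read 5′ to 3′ in the direction of the gene and without the last 6, 11 and 21 bases before the RefSeq start, which lie inside the gene's own annotated span or exons. Notch3 lies on the minus strand at chr17:32166897-32167140, Notch2 on the plus strand at chr3:98013288-98013526 and Lfng on the plus strand at chr5:140607091-140607319.
Notch3: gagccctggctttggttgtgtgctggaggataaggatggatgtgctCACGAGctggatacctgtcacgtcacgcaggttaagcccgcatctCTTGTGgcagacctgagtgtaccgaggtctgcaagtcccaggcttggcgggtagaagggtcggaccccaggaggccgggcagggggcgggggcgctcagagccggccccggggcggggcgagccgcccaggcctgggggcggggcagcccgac
Notch2: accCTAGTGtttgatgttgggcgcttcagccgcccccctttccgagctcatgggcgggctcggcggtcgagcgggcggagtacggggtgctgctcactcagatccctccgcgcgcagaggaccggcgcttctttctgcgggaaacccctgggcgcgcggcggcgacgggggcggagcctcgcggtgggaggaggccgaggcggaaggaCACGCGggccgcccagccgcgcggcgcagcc
Lfng: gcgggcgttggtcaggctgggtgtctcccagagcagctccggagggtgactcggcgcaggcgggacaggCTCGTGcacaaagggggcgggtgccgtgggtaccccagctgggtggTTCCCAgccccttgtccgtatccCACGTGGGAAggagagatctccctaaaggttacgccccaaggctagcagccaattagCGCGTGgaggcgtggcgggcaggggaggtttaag
The Notch3 window held CACGAG 204 bases and CTTGTG, an N box read on the other strand, 159 bases before the start. The Notch2 window held CTAGTG at 247 bases and CACGCG at 42 bases before the start. Neither held the RBPJ core, whereas the Lfng window held it at 135 and, overlapping a CACGTG, at 108 bases before the start. Other matches in the Lfng window were CTCGTG at 181 and CGCGTG at 55 bases. Lfng is not typical of the called pathway genes with a window. Those of Mib2, Neurl1b, Dlk1 and Maml1 held no TGGGAA. Fhl1 and Cdkn1a held it at 112 and 117 bases before a start, in windows inside their own annotated span. The start of Notch3 in GENCODE M21 lies downstream of the RefSeq start used here. Of all 32851 windows of 250 bases in the table, 21.6% held TGGGAA at least once and 2.77% at 2 or more places, 36.7% held CACNAG and 23.5% held CACGNG. Of the 7 members with a window, 1 held TGGGAA, namely Rbpj, and 4 each held CACNAG and CACGNG. The Rbpj windows, and the Hes6 window that held CACNAG, lie inside the gene's own annotated span. These 7 members have 9 windows, so counts of members cannot be set directly against the shares of windows. No window was used for Hes1, Hey1 and Heyl. These matches describe letters only.

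The ligand and the DNA-binding factor were as follows. Jag1, a transmembrane ligand that activates Notch on the adjoining cell, had 28.1, 29.6 and 28.6 CPM in the libraries labelled knockout and 26.7, 27.6 and 28.4 CPM in controls. The ranges overlapped, with a 95% interval of the fold change from 0.953 to 1.14 (edgeR adjusted p 0.556). Rbpj (ENSMUSG00000039191), through which all 4 receptors act on DNA, had 53.7, 50.3 and 48.7 CPM in libraries labelled knockout 1 to 3, against 55.0, 56.6 and 59.8 CPM in controls 1 to 3. All libraries labelled knockout were below all controls, although labelled knockout 1 and control 1 lay close together. The log2 fold change was −0.17 (SE 0.054, 95% interval −0.28 to −0.05), and the edgeR adjusted p of 0.0669 missed the threshold; it ran from 0.0534 without labelled knockout 1 to 0.255 without labelled knockout 3.

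The HES and HEY genes gave no call. Hes1, the canonical target and a repressor that works with Groucho/TLE proteins, had 40.4, 43.1 and 36.6 CPM in the libraries labelled knockout and 37.7, 35.7 and 39.6 CPM in controls. The highest library was labelled knockout 2 and the second lowest labelled knockout 3, so the groups overlapped widely. Its log2 fold change was 0.09 (SE 0.068, edgeR adjusted p 0.452), and the 95% interval of the fold, 0.957 to 1.18, leaves out larger changes. Hes6, a relative that in mouse can inhibit HES1, had 11.0, 10.8 and 12.5 CPM in the libraries labelled knockout and 12.1, 11.0 and 12.3 CPM in controls, with a 95% interval from 0.836-fold to 1.11-fold (adjusted p 0.773). Hey1, a HEY repressor, was near the limit of detection, with 9, 22 and 8 counts in the libraries labelled knockout and 7, 13 and 11 counts in controls. It was set aside by the expression filter. Without the filter its edgeR adjusted p was 0.518, and its groups overlapped.

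Levels per length, which alone allow a comparison between genes, were taken from the authors' deposited FPKM, rounded to whole numbers. Hes1 led with 18 to 21 FPKM in the libraries labelled knockout and 17 to 20 FPKM in controls. Notch2 followed with 12 to 14 FPKM in the libraries labelled knockout and 14 to 16 FPKM in controls, and Rbpj with 8 to 9 FPKM in the libraries labelled knockout and 9 to 10 FPKM in controls. Hes6, at 6 to 7 FPKM in either group, and Jag1, at 5 FPKM in all 6 libraries, stood next to each other. Notch3, at 4 to 5 FPKM in the libraries labelled knockout and 3 to 4 FPKM in controls, and Notch1, at 3 FPKM in all libraries, were tied at 3 FPKM in control 3, and Notch3 was above Notch1 in the other 5 libraries. Notch4 was at 0 in all 6 libraries on this rounded scale, and Hey1 at 0 in all but labelled knockout 2, where it was at 1.

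**Figure D3:**
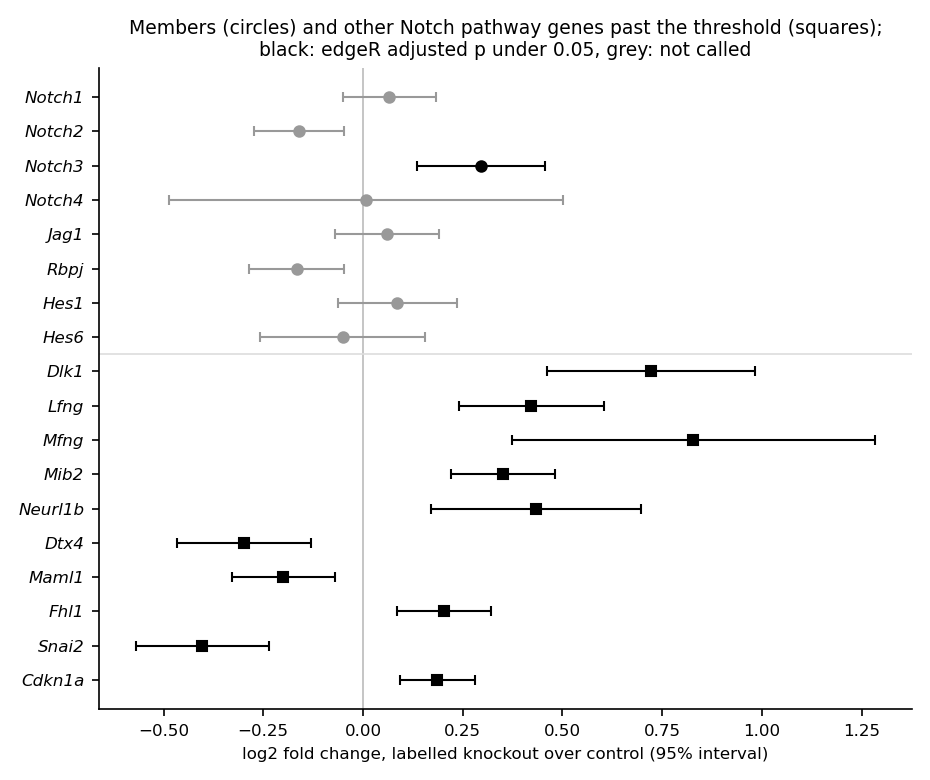
Log2 fold change of the libraries labelled knockout over controls (x axis) with its 95% interval for the 8 tested members (circles) and the 10 other pathway genes past the threshold (squares); black marks an edgeR adjusted p under 0.05. Notch3 is the black circle at 0.30, and the intervals of Notch2 and Rbpj lie below 0 without the adjusted call.

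Beyond the members, 77 further genes of the pathway were listed by role, of which 63 were tested and 14 were not analysed here. Of these, 7 rose and 3 fell (edgeR), beside 6.91% and 5.44% of all tested genes. Together 15.9% of the 63 changed, beside 12.3% of all tested genes, and their median log2 fold change was −0.04 beside −0.0025. With library size alone as the scaling, 7 rose and 6 fell. Over all tested genes 860 rose and 825 fell with that scaling, against 911 and 718 in the main fit.

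**Figure D4:**
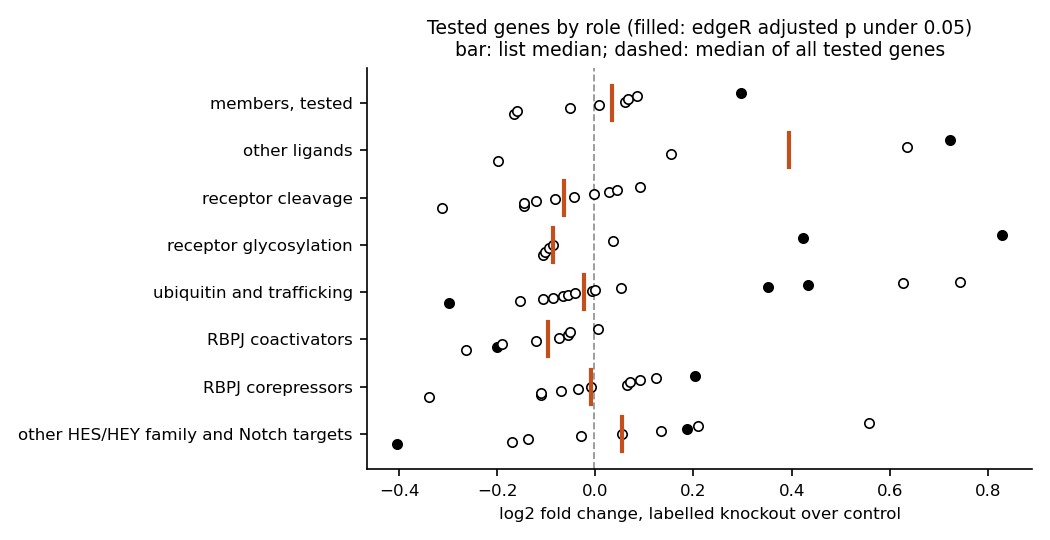
Log2 fold change of the libraries labelled knockout over controls (x axis) for each tested gene, by role in the pathway (rows), with filled points for an edgeR adjusted p under 0.05, the median of each row as a bar and the median of all tested genes as a dashed line. The filled points lie in 6 of the 7 pathway rows, and those at 0.42 and 0.83 in the glycosylation row are Lfng and Mfng.

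Of 7 tested genes of receptor glycosylation, 2 rose and 0 fell, beside 6.91% and 5.44% of all tested genes. Both Fringe genes that were called encode glycosyltransferases of the Golgi, which lengthen the O-fucose sugars of Notch receptors and so shift their response between Delta and Jagged ligands. Lfng had 49.8, 54.8 and 51.9 CPM in libraries labelled knockout 1 to 3, against 43.9, 39.2 and 33.8 CPM in controls 1 to 3. The groups did not overlap, and it rose 1.34-fold (log2 0.42, SE 0.082, edgeR adjusted p 0.0084), a call that held under all 13 alternatives. Mfng, at a low level, had 5.36, 5.19 and 4.49 CPM in the libraries labelled knockout, against 3.21, 3.52 and 1.89 CPM in controls. It rose 1.78-fold (95% interval 1.29 to 2.43, adjusted p 0.0252), and the call was lost without labelled knockout 1, 2 or 3 or control 3 (adjusted p 0.0554 to 0.0746). The log2 fold changes of the other 5 tested genes of receptor glycosylation, among them the third Fringe gene Rfng and the O-fucosyltransferase gene Pofut1, ran from −0.11 to 0.04 and were not called. Control 3 was the lowest library for Lfng, Mfng and Notch3, and also for Mib2, Neurl1b, Fhl1 and Cdkn1a among the called genes described below. It was the highest library for Notch2, Rbpj, Maml1 and Snai2, and neither for Dlk1 and Dtx4. Its summed level of adipocyte markers, 5629 CPM, was the lowest of all libraries.

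Among ubiquitin ligases and trafficking genes, 2 of 14 rose and 1 fell, beside 6.91% and 5.44% of all tested genes. Mib2, a ligase that promotes the uptake of Notch ligands by the cell that presents them, had 43.0, 40.0 and 43.0 CPM in libraries labelled knockout 1 to 3, against 34.6, 33.0 and 31.2 CPM in controls 1 to 3. This was a clear separation of the groups, with a log2 fold change of 0.35 (SE 0.059, edgeR adjusted p 0.00418) that was called under all 13 alternatives. Neurl1b, a Neuralized ligase with a like role, had 23.2, 32.6 and 29.3 CPM in the libraries labelled knockout, against 20.4, 23.8 and 19.0 CPM in controls. Labelled knockout 1 lay below control 2, and the rise (1.35-fold, adjusted p 0.038) was not called without labelled knockout 2 or 3 or control 1 or 3 (adjusted p 0.104 to 0.140). Dtx4, a Deltex ligase acting on Notch itself, fell to 39.8 ± 3.92 CPM in the libraries labelled knockout, against 49.1 ± 3.73 CPM in controls (SD, n = 3 each; log2 −0.30, edgeR adjusted p 0.0277), a call lost without labelled knockout 2 or 3 or control 1 or 2 (adjusted p 0.0592 to 0.0881).

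Of the 4 tested ligand genes beside Jag1, 1 rose, namely Dlk1, beside 6.91% of all tested genes. It encodes a Delta-like membrane protein without the domain that activates Notch and is known as preadipocyte factor. It had 145.3, 139.1 and 147.7 CPM in libraries labelled knockout 1 to 3, against 84.7, 68.6 and 107.5 CPM in controls 1 to 3. Controls varied among themselves far more than the libraries labelled knockout, and still none reached them. The rise was 1.65-fold (95% interval 1.38 to 1.98, edgeR adjusted p 0.00363), called under all 13 alternatives. Other tested ligand genes, Dlk2, Nov and Egfl7, were not called, and Jag2, Dll1, Dll3, Dll4 and Dner were not analysed here.

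Markers of preadipocytes and fibroblasts were read beside Dlk1. Their summed level over the 5 of 7 with rows was 4475 to 4635 CPM in the libraries labelled knockout and 4302 to 5151 CPM in controls. Col1a1 supplied most of this sum, with means of 4092 CPM in the libraries labelled knockout and 4246 CPM in controls. The sum therefore says little about the other markers. Of the 5, 2 fell (edgeR), beside 5.44% of all tested genes. The 2 were Pdgfra, a growth factor receptor gene of such cells, and Thy1, a surface marker, named after their values were seen. Their means were 183.5 and 205.1 CPM in the libraries labelled knockout, against 238.0 and 275.0 CPM in controls. Cd34, Ly6a and Col1a1 were not called, with log2 fold changes of 0.08, 0.14 and −0.05, so 2 of these markers went the other way. Dpp4 and Pi16 were not analysed here. The part of less differentiated cells in these differences was not tested.

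The proteases that release the Notch intracellular part gave no call. Of 10 genes for furin, the ADAM sheddases and gamma-secretase, edgeR called 0, beside 12.3% of all tested genes, DESeq2 0 and limma-voom 0. At an unadjusted edgeR p under 0.05, 2 were lower, where 27.9% of all tested genes reached that level in either direction.

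In the nuclear complexes around RBPJ, 1 of 8 coactivator genes fell, beside 5.44% of all tested genes, and 1 of 11 corepressor genes rose, beside 6.91%; counts this small are near that background. Maml1, a Mastermind coactivator, had 52.9, 55.8 and 50.9 CPM in libraries labelled knockout 1 to 3, against 59.2, 58.1 and 65.7 CPM in controls 1 to 3. The groups were close but did not overlap, and the log2 fold change of −0.20 (edgeR adjusted p 0.049) was no longer called with DESeq2 (adjusted p 0.0971) or limma-voom (0.0524) or without labelled knockout 1, 2 or 3 or control 1 or 3 (0.0603 to 0.199). An antisense gene, Gm26542, overlaps it in GENCODE M21, as AC167363.2 on the other strand overlaps Cdkn1a. The called markers Lipe, Des and Pdgfra overlap antisense genes there as well, and Pdgfra also Mir7025 on the same strand. The median log2 fold change of the 8 coactivator genes was −0.10, beside −0.0025 for all tested genes. Fhl1, a LIM-domain gene of which 1 protein form binds RBPJ, rose to 190.5 ± 13.5 CPM in the libraries labelled knockout, against 165.5 ± 5.09 CPM in controls (SD, n = 3 each; edgeR adjusted p 0.0308). Gene counts do not separate its forms, and the call was lost without labelled knockout 2 or 3 or control 1 or 3 (adjusted p 0.0622 to 0.111).

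Of 9 tested genes among other HES/HEY relatives and known Notch targets, 1 rose and 1 fell, beside 6.91% and 5.44% of all tested genes. Snai2, a zinc-finger repressor that is a Notch target in some cell types, had 36.4, 35.5 and 33.8 CPM in libraries labelled knockout 1 to 3, against 45.8, 41.7 and 51.8 CPM in controls 1 to 3. It fell by 0.40 on the log2 scale (SE 0.076, edgeR adjusted p 0.00714), with no overlap, and was called under all 13 alternatives. Cdkn1a, which encodes the cell cycle inhibitor p21, a Notch target in mouse keratinocytes and a p53 target in many cells, had 152.5, 152.9 and 152.5 CPM in the libraries labelled knockout, against 139.2, 135.1 and 128.3 CPM in controls. It rose 1.14-fold (adjusted p 0.0175), and was not called without labelled knockout 2 (adjusted p 0.0581) or 3 (0.0778). Myc and Ccnd1, growth genes that Notch drives in other cells, and the HES relatives Bhlhe40, Bhlhe41 and Hey2 were not called; Hes5 and Nrarp, targets often read as a measure of Notch activity, were not analysed here.

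**Figure D5:**
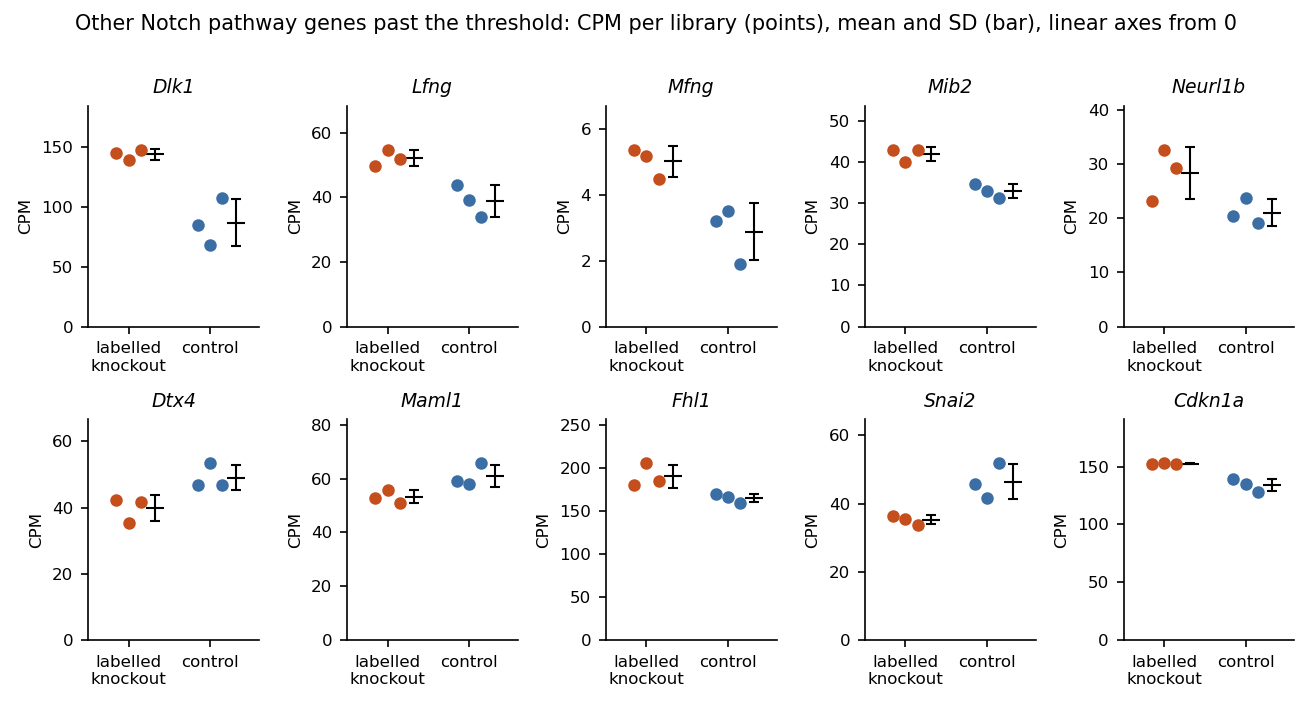
CPM (y axes, linear, each from 0) of the 10 other pathway genes past the threshold, in the 3 libraries labelled knockout (orange, left) and the 3 controls (blue, right); points are libraries in replicate order 1 to 3, and bars give mean and SD. Among them only Neurl1b overlaps between the groups.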

How the data were processed

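The authors deposited read counts per gene as whole numbers, per the file headers, for 3 libraries labelled knockout and 3 controls. Beside them the authors deposited FPKM rounded to whole numbers, treated here as a score and used only to order levels per length. Per the submitters' processing notes, Novoalign 2.8, Picard, DESeq2 and mouse build mm9 were used; the sources used here do not give their roles, nor the counter, its annotation or its strand setting. Each of the 13962 genes has at least 10 counts in some library, so rarer genes are not covered.

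The counts went into edgeR 4.0.16 (R 4.3.3): expression filter by group (13192 genes tested, 770 set aside), TMM scaling, and the quasi-likelihood test with the group alone, with Benjamini-Hochberg adjustment of p over every tested gene. CPM use TMM-scaled library sizes. A gene rose or fell at an adjusted p under 0.05. Intervals are 95% intervals of that test. Shares and paralog ratios (0.5 counts added) were tested by exact permutation over libraries. The code was tested on simulated counts. Named genes were the members, Tle3 and every listed pathway gene past the threshold; uncalled pathway and marker genes named beside them were picked after their values were seen. The members and lists were chosen with earlier results of these data known. Alternatives were DESeq2 1.42.0, limma-voom (limma 3.58.1), other filters and scalings, a replicate block and leaving out each library. Within groups, no pair of libraries agreed within sampling noise (chi-square per degree of freedom 2.98 to 7.90).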

Additional observations from a re-analysis of the deposited data

How the results depend on the processing

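Over the 13 alternatives to the edgeR fit, every tested member except Notch4, and each of the 10 called pathway genes, kept its direction. The Notch4 log2 fold change, 0.0084, became −0.0073 with library size alone, −0.021 with limma-voom and −0.0039, −0.20, −0.0047 and −0.064 without labelled knockout 1, labelled knockout 3, control 1 and control 3, with 0.20 without labelled knockout 2. Its share of receptor counts, 0.024 percentage points higher in the libraries labelled knockout, ran from −0.098 to 0.161 points when 1 library was left out. The difference in the log2 ratio of Notch4 to Notch2 ran from −0.036 to 0.30, and that of Hey1 to Hes1 from −0.10 to 0.65. Changed members numbered 0 to 1 higher and 0 lower when 1 library was left out, and 1 lower with the replicate block. Changed pathway genes ran from 3 to 8 higher and from 1 to 4 lower without 1 library. With library size alone 6 pathway genes were lower, where the genes lower in the whole series rose from 718 to 825. Over all genes, 332 to 1025 were higher and 289 to 870 lower without 1 library, fewest without labelled knockout 3; fewer libraries enter such fits. The labels do not say what the replicate numbers mark, so the numbers were not taken as pairs. The same-numbered libraries correlated at −0.04, 0.19 and 0.03 in their deviations from the group means, and library 1 labelled knockout correlated best with control 3. Deviations within a group depend on each other, so these correlations cannot settle whether the numbers mark pairs. With the replicate block Notch2 was called (log2 −0.16, adjusted p 0.0492), Maml1 was not (adjusted p 0.0552), and Notch3 was called (adjusted p 0.0157); over all genes 1032 were higher and 777 lower. Notch4 and Hey1, with at most 43 and 22 counts per library, are limited by depth.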
